A study of Mus musculus with 13 samples.

Results

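Col2a1, Col11a1, Col11a2 and Col27a1, which encode the chains of the cartilage fibril collagens II, XI and XXVII, were described in mandibular condylar cartilage of aged and young mice. The members were taken by gene symbol, and all 4 were found among the 18748 genes of the deposited table and passed the filter on low counts. Poly(A) RNA was taken from the cartilage of the mandibular condyle, the lower jaw's part in the temporomandibular joint, in 6 libraries of aged mice (18 months old) and 7 of young mice (2 months old). The labels name no strain, sex, genotype or treatment for either age. They number the libraries without saying whether each came from a separate animal, so the p-values measure only the spread between these libraries.

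The strength of cartilage rests on thin fibrils whose bulk is type II collagen, a trimer of 3 identical chains made from Col2a1. Type XI collagen runs through the same fibrils, where it starts fibril assembly and limits fibril width. It is built from the products of Col11a1 and Col11a2 together with a chain made from the Col2a1 gene. Type XXVII collagen, a trimer of the Col27a1 product, belongs to the same family of fibrillar collagens but has a shorter, interrupted triple helix, and it is needed for an ordered growth plate. In chondrocytes the transcription factor Sox9, with Sox5 and Sox6, drives Col2a1 and the type XI genes. The condyle also has a fibrous surface layer rich in type I collagen, and it lies on bone.

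RefSeq promoter sequences (GRCm38.p6, plus strand, the 250 bases before a transcript start) were at hand for 3 of the 4 genes, and are shown because the type XI genes moved together with age while Col27a1 did not follow them. The windows are chr3:114030290-114030539 for Col11a1, chr17:34038888-34039137 for Col11a2 and chr4:63215162-63215411 for Col27a1. Capitals mark every match, on either strand, to the GC box GGGCGG or the TATA box TATAAA.
Col11a1: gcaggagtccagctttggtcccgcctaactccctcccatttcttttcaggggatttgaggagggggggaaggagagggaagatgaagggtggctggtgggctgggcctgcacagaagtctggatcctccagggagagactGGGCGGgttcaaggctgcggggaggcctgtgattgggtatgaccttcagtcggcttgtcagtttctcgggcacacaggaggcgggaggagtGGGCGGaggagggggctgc
Col11a2: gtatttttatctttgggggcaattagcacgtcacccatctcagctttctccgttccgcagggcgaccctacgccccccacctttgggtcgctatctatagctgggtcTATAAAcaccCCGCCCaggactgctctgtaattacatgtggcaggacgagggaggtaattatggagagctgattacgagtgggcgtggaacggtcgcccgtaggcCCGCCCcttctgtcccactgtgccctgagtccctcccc
Col27a1: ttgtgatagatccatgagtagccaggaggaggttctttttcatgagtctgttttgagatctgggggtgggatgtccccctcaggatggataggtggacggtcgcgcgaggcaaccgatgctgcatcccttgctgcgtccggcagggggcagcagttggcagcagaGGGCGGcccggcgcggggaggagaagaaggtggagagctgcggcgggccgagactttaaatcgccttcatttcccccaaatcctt

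The GC box matched at 2 places in the Col11a1 window, 2 in the Col11a2 window and 1 in the Col27a1 window, and 32.7% of all 32851 promoters of this length hold at least 1. The TATA box word matched once, in the Col11a2 window at 143 to 138 bases before the transcript start. It is held by 12.4% of promoters at any place in the window. The core words of SOX binding, ACAAT and ACAAAG, matched in none of the 3 windows, against 38.8% of promoters. Only these exact words in these 250 bases were searched, so SOX sites of other spelling or place were not examined. All 3 windows were rich in G and C, at 62.4% for Col11a1, 57.6% for Col11a2 and 59.6% for Col27a1, with a median of 52.4% over all promoters.

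Library totals of the deposited expected counts were 16356839 to 17876681 for the aged mice and 17531694 to 18203443 for the young mice. No member had under 5922 counts in any library, so the spread between libraries, not counting error, limits the members' values. Of 10 chondrocyte markers, Col2a1 among them, 6 were called lower and 2 higher, at 1.28 to 2.65% of counts in aged and 2.42 to 3.66% in young libraries, where 21.6% of all 14067 tested genes were called lower and 24.7% higher. Col2a1 alone took 0.507 to 1.32% of counts in aged and 1.85 to 2.98% in young libraries. The share of the list thus rests in large part on this gene. Acan, which encodes the aggrecan core protein, had a mean FPKM of 301.7 in aged and 269.4 in young libraries, while Cnmd, the gene of a cartilage glycoprotein, was at 0.578 in aged and 21.1 in young libraries and the matrilin gene Matn3 at 0.578 and 9.34, both named after their values were seen. The 2 markers called higher were Comp, at a mean FPKM of 3219.5 in aged and 1384.1 in young libraries, and Ucma, at 6.65 and 2.66. FPKM is a level scaled to gene length and sequencing depth, and is the scale used here wherever genes are compared with each other. Markers of other cells moved with age too. Of 17 skeletal muscle markers 15 were called higher and the list took 0.699 to 2.3% of counts in aged libraries, against 0.0708 to 0.657% in young ones. All 13 erythroid markers were higher, at 0.208 to 1.56% of counts in aged and 0.0339 to 0.140% in young libraries, as were 10 of 13 neutrophil markers, at 0.131 to 0.670% and 0.0581 to 0.185%. Of 9 osteoblast and osteocyte markers, Col1a1 among them, 6 were lower and 1 higher. The list took 3.06 to 4.27% of counts in aged and 9.92 to 11.7% in young libraries. Most of this share was Col1a1, which fibrous tissue also makes. In counts scaled to library size with TMM factors (CPM), its mean was 27257 in aged and 102990 in young libraries. Ibsp, the next most abundant marker of the list, was at 3028 and 4843. The fall in share is thus mainly that of Col1a1. Of 9 markers of fibroblasts, tendon and the superficial layer 4 were higher and 1 lower, at 0.283 to 0.493% in aged and 0.0629 to 0.0989% in young libraries. Of 7 hypertrophic chondrocyte markers 4 were lower, of 6 endothelial markers 2 were lower and 1 higher, and of 4 tested adipocyte markers 3 were higher. No gene of these lists was at 0 in all libraries of an age. Scores of muscle and of erythroid cells and neutrophils were tried as covariates, given with the alternatives, and the part of the other cells in the results was not tested.

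Col2a1 was the most abundant of the 4 genes at both ages and was much lower in the aged mice. By mean FPKM it ranked 27 among all genes of the table in the aged libraries and 5 in the young ones. In FPKM its lowest, median and highest values were 1089, 1233 and 2867 in the 6 aged libraries, against 4026, 4956 and 6470 in the 7 young ones. Aged replicates 4 and 1 were the highest of their age, and the ages did not overlap. The gene took 0.742 ± 0.327% of all counts in aged libraries (SD, n = 6) and 2.35 ± 0.436% in young libraries (SD, n = 7). In counts scaled to library size with TMM factors (CPM) the log2 fold change, aged over young, was −1.89 ± 0.24 (SE; 95% confidence interval −2.41 to −1.37; edgeR adjusted p = 3.6e-05), or 3.71-fold lower in the aged mice. In whole tissue, fewer cells of a type and less RNA per cell cannot be told apart.

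Both type XI genes fell as well. Col11a1, whose loss in the mouse causes the lethal chondrodysplasia cho, had a lowest, median and highest FPKM of 82.4, 105.1 and 211.8 in aged libraries, against 404.7, 423.6 and 455.4 in young ones. Aged replicate 4 was again the highest of its age and was still well below the lowest young library. The log2 fold change of Col11a1 was −2.01 ± 0.19 (SE; edgeR adjusted p = 2.6e-06), or 4.03-fold lower in the aged mice.

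Col11a2, the partner chain, had a lowest, median and highest FPKM of 162.0, 229.0 and 307.8 in aged libraries, against 669.0, 720.8 and 782.9 in young ones. Every aged library was below every young one, with replicate 4 highest and replicate 6 lowest. Its log2 fold change was −1.83 ± 0.14 (SE; edgeR adjusted p = 4.52e-07), or 3.57-fold lower in the aged mice. In young libraries the type XI genes varied little, with a coefficient of variation in FPKM of 4.53% for Col11a1 and 5.68% for Col11a2, and of 18.5% for Col2a1. In aged libraries it was 38.5% for Col11a1, 25.1% for Col11a2 and 44.6% for Col2a1.

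Col27a1 was lower by far less, on counts that may include reads of non-coding genes annotated within it. Its lowest, median and highest FPKM were 65.0, 88.0 and 100.7 in aged libraries, against 69.0, 88.2 and 111.9 in young ones. The ages overlapped, and the means were 84.6 ± 13.4 FPKM in aged (SD, n = 6) and 88.7 ± 14.7 FPKM in young libraries (SD, n = 7). In TMM-normalised CPM the means were 430.3 ± 74.5 in aged and 535.3 ± 78.5 in young libraries. The log2 fold change on that scale was −0.31 ± 0.12 (SE; 95% confidence interval −0.58 to −0.053), just past the threshold (edgeR adjusted p = 0.0479). That call was lost in 18 of 27 alternatives. With library sizes alone the value was −0.088 (edgeR adjusted p = 0.523), a scaling that put the median over all tested genes at 0.24 in place of 0.014, and on log2(FPKM + 1) it was −0.068 (limma adjusted p = 0.656). Leaving out aged replicate 1, 2, 5 or 6 or young replicate 1, 2, 5, 6 or 7 also ended it, at −0.25 to −0.34 (edgeR adjusted p between 0.051 and 0.0962).

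All 4 genes were thus called lower in the aged mice with TMM scaling, where 46.2% of all tested genes were called in either direction, 21.6% lower and 24.7% higher. The ages did not overlap in CPM for 3 of the 4, all but Col27a1, against 19.2% of the tested genes. By size of fall Col11a1, Col2a1 and Col11a2 ranked 58, 64 and 80 among the tested genes and Col27a1 ranked 2309.

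**Figure D1:**
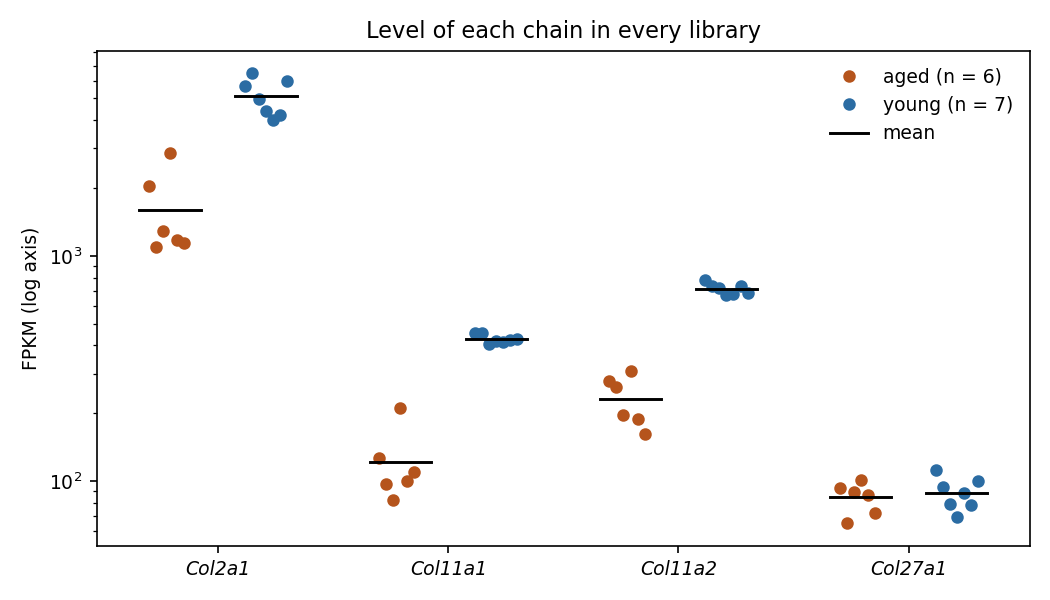
FPKM (log axis) of each gene in every library, aged left of young, with 1 point per library in order of replicate number and a black line at the mean. The aged libraries lie below all young libraries for Col2a1, Col11a1 and Col11a2 and among them for Col27a1, whose means are 84.6 and 88.7 FPKM.

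The ratio of 2 genes within a library does not depend on how libraries are scaled, so the balance of the chains was compared as FPKM ratios. A difference of mean log2 ratio was tested by a two-sided exact permutation test over all 1716 ways to assign the ages (smallest possible p = 0.000583), with Benjamini-Hochberg adjustment over 17 ratios. The balance of Col2a1 to the type XI chains showed no difference beyond the spread. There were 13.1 ± 2.42 Col2a1 units for each of Col11a1 in aged (SD, n = 6) and 11.9 ± 1.85 in young libraries (SD, n = 7), and the log2 difference was 0.14 (95% interval −0.17 to 0.44; exact permutation adjusted p = 0.393). It was 0.072 to 0.20 with single libraries left out, lowest without aged replicate 1. Against Col11a2 the ratio was 6.79 ± 1.68 in aged and 7.14 ± 1.22 in young libraries, a log2 difference of −0.097 (95% interval −0.49 to 0.27; exact permutation adjusted p = 0.682). Both intervals span 0, and a p that misses the threshold does not show that the ratios are equal.

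The Col11a1 to Col11a2 ratio had a lowest, median and highest value of 0.369, 0.492 and 0.688 in aged libraries, against 0.561, 0.611 and 0.626 in young ones. Aged libraries lay on either side of the narrow young range, with replicates 4 and 6 above it and the other 4 below it. The SD of the log2 ratio was 0.37 in aged and 0.062 in young libraries. The mean log2 difference was −0.23 (95% interval −0.55 to 0.086; exact permutation adjusted p = 0.186), and −0.32 without aged replicate 4 (exact permutation adjusted p = 0.0465).

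Col27a1 gained weight against each of the other chains. The Col2a1 to Col27a1 ratio had a lowest, median and highest value of 13.6, 16.3 and 28.5 in aged libraries, against 45.7, 59.2 and 68.6 in young ones. The highest aged ratio, in replicate 4, was well below the lowest young one. The log2 difference was −1.68 (95% interval −2.06 to −1.29; exact permutation adjusted p = 0.000991), a ratio 3.21-fold lower in the aged mice. The Col11a1 to Col27a1 ratio was 1.42 ± 0.400 in aged and 4.92 ± 0.690 in young libraries, and the Col11a2 to Col27a1 ratio 2.78 ± 0.738 and 8.21 ± 1.18. Their log2 differences were −1.82 and −1.59 (exact permutation adjusted p = 0.000991 for both), and neither overlapped between the ages. Of the summed FPKM of the 4 genes, which was 2041 ± 816 in aged and 6339 ± 988 in young libraries, Col27a1 made up 4.45 ± 1.04% in aged and 1.41 ± 0.180% in young libraries. Col2a1 made up 77.5 ± 3.60% in aged and 80.3 ± 2.46% in young libraries.

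**Figure D2:**
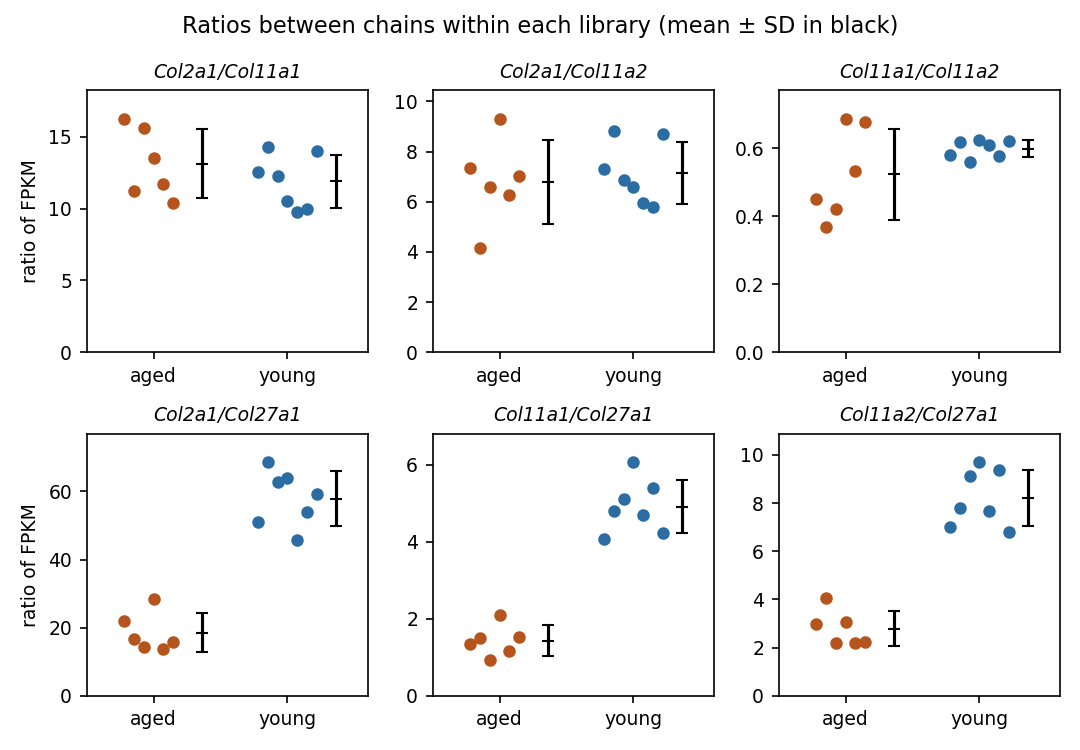
Ratio of FPKM for each pair of the 4 genes in every library (linear axes from 0), aged left of young, with the mean ± SD of each age in black beside its points. The 3 ratios among Col2a1, Col11a1 and Col11a2 overlap between the ages, and the 3 ratios to Col27a1 do not.

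The genes were also set against Acan, in the same libraries. For Acan itself edgeR gave −0.056 ± 0.18 on the log2 scale (SE; adjusted p = 0.821), a value above 0 under 8 of 27 alternatives. The Col2a1 to Acan ratio was 5.30 ± 1.74 in aged (SD, n = 6) and 19.1 ± 2.07 in young libraries (SD, n = 7), a log2 difference of −1.91 (exact permutation adjusted p = 0.000991). The Col11a1 to Acan ratio differed by −2.05 and the Col11a2 to Acan ratio by −1.81 on the log2 scale (exact permutation adjusted p = 0.000991 for both). In each of these 3 ratios every aged library was below every young one. The Col27a1 to Acan ratio was 0.286 ± 0.0435 in aged and 0.333 ± 0.0333 in young libraries, a log2 difference of −0.23 (95% interval −0.46 to 0.0041; exact permutation adjusted p = 0.0838), and −0.28 without aged replicate 1 (exact permutation adjusted p = 0.0293).

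Against Col1a1, the main chain of type I collagen of bone and fibrous tissue, the Col27a1 ratio alone passed the test. Col1a1 was more abundant than Col2a1 at both ages, and the Col2a1 to Col1a1 ratio was 0.301 ± 0.113 in aged and 0.301 ± 0.0652 in young libraries. The log2 difference was −0.047 (95% interval −0.55 to 0.47; exact permutation adjusted p = 0.842), and its sign turned without aged replicate 2 or 3 or young replicate 2 or 7. The Col11a2 to Col1a1 ratio differed by 0.049 (exact permutation adjusted p = 0.682; −0.0088 without aged replicate 4) and the Col11a1 to Col1a1 ratio by −0.19 on the log2 scale (exact permutation adjusted p = 0.393; −0.33 and adjusted p = 0.0449 without aged replicate 4). The Col27a1 to Col1a1 ratio was 0.0162 ± 0.00291 in aged and 0.00524 ± 0.00110 in young libraries, 3.11-fold higher in the aged mice (log2 difference 1.64, exact permutation adjusted p = 0.000991). Every aged library was above every young one.

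Type V collagen is the counterpart of type XI in non-cartilage fibrils, and Col11a1 chains can also assemble with type V chains. The Col11a1 to Col5a1 ratio had a lowest, median and highest value of 0.242, 0.329 and 0.679 in aged libraries, against 0.755, 0.904 and 1.03 in young ones. Aged replicate 4 came nearest to the young range without reaching it. The log2 difference was −1.32 (95% interval −1.74 to −0.84; exact permutation adjusted p = 0.000991), and against Col5a2 it was −1.09 (exact permutation adjusted p = 0.000991). In level, Col11a1 and Col5a1 were thus nearly even in young libraries, and in aged ones Col5a1 was the more abundant in all 6. The Col2a1 to Col9a1 ratio rose to 361.9 ± 152 in aged libraries, against 35.8 ± 2.55 in young libraries (log2 difference 3.20, exact permutation adjusted p = 0.000991), since Col9a1, a chain of the type IX collagen that coats the fibril, fell farther than Col2a1.

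Of the 7 other tested fibrillar chains 5 were called lower and none higher, where 21.6% and 24.7% of all tested genes were. Their median log2 fold change was −0.78, against a median of 0.014 over all tested genes. Among these chains Col1a1 and Col1a2 fell most, at −1.92 ± 0.11 and −1.81 ± 0.10 (SE; edgeR adjusted p = 4.66e-08 for both), a size close to that of Col2a1 and the type XI genes. Col24a1, the nearest relative of Col27a1 among the fibrillar chains and named after its value was seen, fell by 0.56 on the log2 scale (edgeR adjusted p = 0.000232). Col3a1 and Col5a3 stood at −0.44 and −0.40 and were not called (edgeR adjusted p = 0.0641 and 0.195). Of 13 proteins on the surface of cartilage fibrils 6 were lower and 4 higher, beside 21.6% and 24.7% over all tested genes. Their median was −0.15. Col9a1 and the matrilin gene Matn1 (mean CPM 0.0271 in aged and 0.746 in young libraries) stood at −5.06 and −4.47, and the leucine-rich protein Chad, which binds type II collagen, at 2.05.

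**Figure D3:**
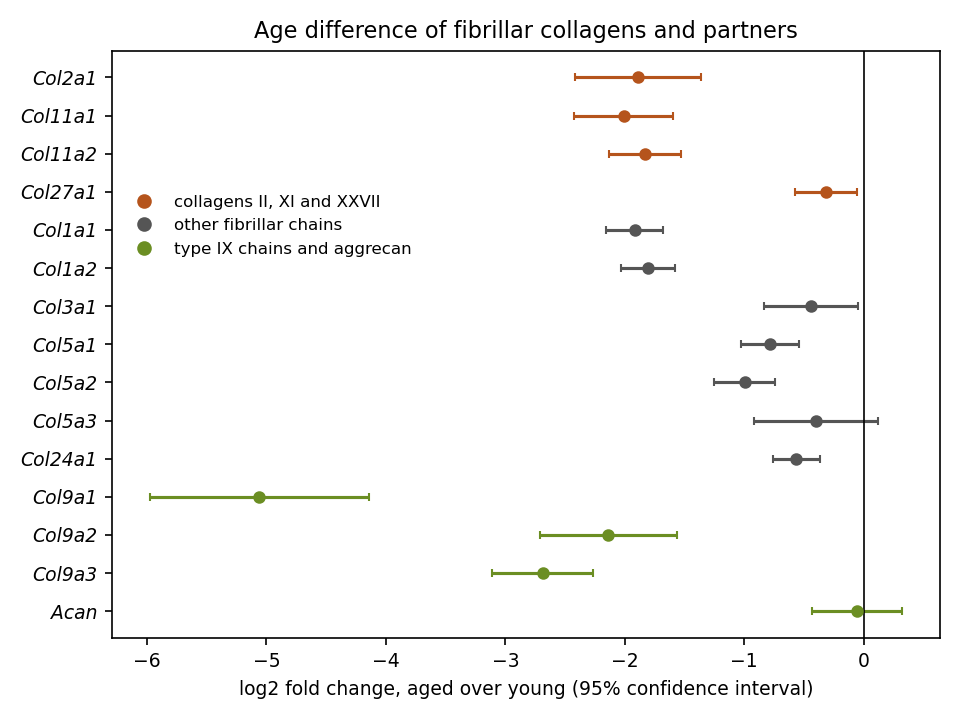
Log2 fold change, aged over young, from edgeR with its 95% confidence interval, for the 4 genes (orange), the other fibrillar chains (grey) and the type IX chains with Acan (green). Col2a1, Col11a1 and Col11a2 lie between −2.01 and −1.83 beside Col1a1 and Col1a2, while Col27a1 lies at −0.31.

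Genes that modify, fold, export and cleave these collagens were mostly lower. Of 26 genes for the modification, folding, export and propeptide cleavage of procollagens, 22 were called lower and none higher (1 with library sizes alone). Their median log2 fold change was −0.56. Over all tested genes 21.6% were called lower and 24.7% higher. Pcolce2, which enhances propeptide cleavage, and Bmp1, which cuts propeptides off fibrillar procollagens, stood at −1.84 ± 0.22 and −1.26 ± 0.075 (SE; edgeR adjusted p = 2.17e-05 and 6.44e-08). Of 5 cross-linking oxidases Lox and Loxl4 were lower, at −1.65 and −1.63, and none was higher. Of 7 proteases that cut type II collagen 5 were lower and none higher (1 with the replicate block or without aged replicate 3), with Mmp13, the main collagenase of cartilage, at −1.38 and Mmp9 at −1.11. Among 9 collagen receptors 4 were lower, 2 with library sizes alone, and 3 higher. Itga2 and Ddr2, a kinase receptor for fibrillar collagens, stood at −0.77 and −0.47, and Gp6, a platelet collagen receptor, at 2.99.

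Of 16 factors and cofactors that raise cartilage collagen transcription, 1 was called lower and 5 higher, where 21.6% and 24.7% of all tested genes were, at a median log2 fold change of 0.13. With library sizes alone 10 were higher. Sox9 had a mean FPKM of 24.6 in aged and 19.7 in young libraries (log2 fold change 0.11 ± 0.13, SE; edgeR adjusted p = 0.501). Its partners Sox5 and Sox6 rose by 0.47 ± 0.15 and 0.56 ± 0.11 (SE; edgeR adjusted p = 0.021 and 0.00138); all 3 SOX genes were singled out after their values were seen. By the naming rule, the coactivator Ppargc1a and the homeobox gene Nkx3-2 stood at 2.05 and 1.05, and Sox8, which overlaps with Sox9 in function, at −1.15. Their levels were low, at a mean CPM of 4.64, 3.44 and 2.44 in aged and 1.11, 1.65 and 5.44 in young libraries. Of 5 repressors of cartilage collagen transcription 2 were lower (Twist1 at −0.74, Snai2 at −0.54) and 2 higher. Msx2 was higher by 1.18, at a mean CPM of 1.19 in aged and 0.524 in young libraries. Zeb1, named after its value was seen, was higher by 0.20. Only 1 repressor was called higher with the replicate block, without aged replicate 3, 5 or 6, or without young replicate 1, 4, 6 or 7.

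Within each age no pair of the 4 genes passed the test of correlation after adjustment. Pearson's r of log2 CPM lay between 0.380 and 0.894 over the 6 aged libraries and between 0.467 and 0.833 over the 7 young ones, and the smallest of the 12 adjusted values was 0.137 (exact permutation of pairings). For Col2a1 and Col11a1 r was 0.894 in aged (exact p = 0.0292; Spearman's rho 0.600, exact p = 0.242) and 0.778 in young libraries (exact p = 0.0369; rho 0.607, exact p = 0.167). Without aged replicates 1 and 4, the farthest from the median of Col2a1, r was −0.425, so the r of 0.894 depends on them. Leaving out the farthest libraries narrows the range of a gene by construction and leaves few libraries. The values that remain, and their signs, therefore cannot show whether 2 genes are related. In all, 4 of the 6 aged pairs turned negative without the 2 farthest libraries, among them Col2a1 and Col11a2 at −0.299 and Col11a2 and Col27a1 at −0.544. For Col11a1 and Col11a2 r was 0.647 in aged (exact p = 0.146; rho 0.486, exact p = 0.356) and 0.833 in young libraries (exact p = 0.0187; rho 0.821, exact p = 0.0341). Without the 2 libraries farthest from the Col11a1 median it was −0.080 in aged and 0.639 in young libraries. For Col2a1 and Col27a1 r was 0.803 in aged (exact p = 0.0458; rho 0.829, exact p = 0.0583) and 0.695 in young libraries (exact p = 0.0968; rho 0.536, exact p = 0.236), and 0.922 and 0.544 without the 2 farthest.

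Among 9358 genes (mean FPKM of 5 or more), likeness to a member was taken as the smaller of its r within the 6 aged and within the 7 young libraries, as a description only. Chst11, a chondroitin sulfotransferase, was most like Col2a1 (0.910), Tgfb1 most like Col11a1 (0.894), the adaptor gene Shf most like Col11a2 (0.858) and the cation channel gene Trpv4 most like Col27a1 (0.905), followed for Col27a1 by Syt8 (0.901) and Pth1r (0.891), the receptor for parathyroid hormone-related protein. For the other 3 members the next genes were Hip1r and Furin for Col2a1, Hip1r and F5 for Col11a1, and Dcp2 and Klhl25 for Col11a2, at 0.839 to 0.903. Between the ages the edgeR log2 fold change was 0.15 for Tgfb1, −0.45 for Chst11, −0.50 for Shf and −0.090 for Trpv4. It was 1.49 for F5, 0.42 for Hip1r, −0.059 for Furin, −0.098 for Dcp2, −0.66 for Klhl25, −0.82 for Syt8 and −0.22 for Pth1r. Among the members themselves, Col11a1 ranked 27, Col27a1 65 and Col11a2 99 in likeness to Col2a1 (0.778, 0.695 and 0.645). In likeness to Col11a1, Col11a2 ranked 86 (0.647) and Col27a1 335 (0.469), and in likeness to Col11a2, Col27a1 ranked 496 (0.380).

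Col2a1, Col11a1 and Col11a2 were called lower under every alternative run. Over these 27 their log2 fold changes ranged from −2.32 to −1.66, from −2.45 to −1.79 and from −2.02 to −1.60, and each stayed called. With the muscle marker score of each library as a covariate they were −1.73, −1.92 and −1.81, and with the score for erythroid cells and neutrophils −2.04, −2.45 and −1.90 (edgeR adjusted p at most 0.0182). Col27a1 then stood at −0.18 and −0.30 and was not called (edgeR adjusted p = 0.553 and 0.416). The score for erythroid cells and neutrophils did not overlap between the ages, at 5.48 in the lowest aged and 5.35 in the highest young library. The fit with it therefore cannot separate age from the content of these cells. The muscle score overlapped little, at 7.24 in the lowest aged and 7.74 in the highest young library, so its fit separates them only weakly. Without the 2 aged libraries highest in Col2a1, replicates 1 and 4, an alternative chosen after seeing the data, the 4 genes stood at −2.32, −2.32, −2.02 and −0.41.

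**Figure D4:**
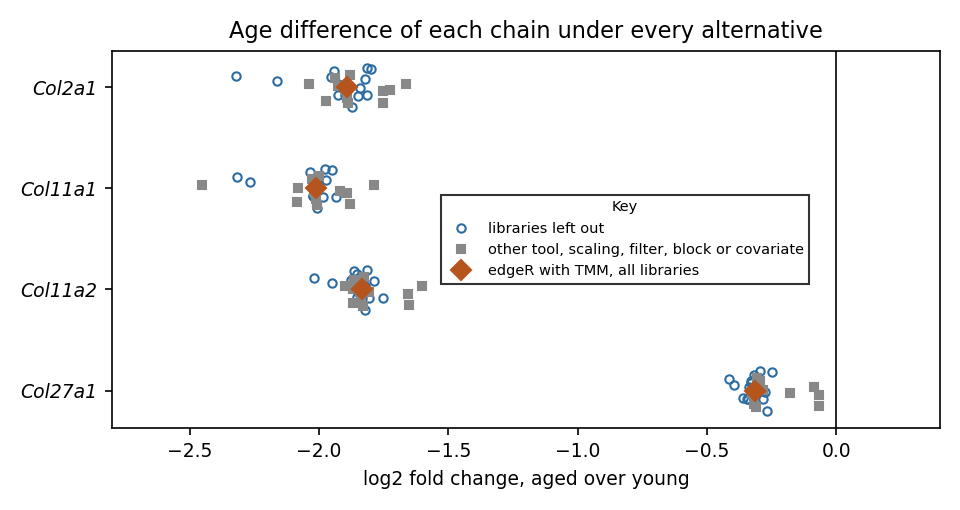
Log2 fold change, aged over young, of each gene with edgeR and TMM scaling (orange diamonds), with libraries left out (open circles) and with other tools, scalings, filters, the replicate block or covariates (grey squares). The values of Col27a1 run from −0.41 to −0.068 and overlap none of those of the other 3 genes.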

How the data were processed

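RNA of mandibular condylar cartilage was sequenced strand-specifically on a DNBSEQ instrument after poly(A) capture, per the labels' protocols. The tools named, without roles, are RSEM 1.3.1, DESeq2 1.4.5, Bowtie2 2.3.4.3 and HISAT2 2.1.0, and the build is GRCm39, per the submitters' processing notes. Annotation and use of strand in counting are not given in the sources used here, and RefSeq places non-coding genes within Col2a1 and Col27a1, whose reads may be shared. The deposited table holds expected counts (5.3% of values not whole), and the FPKM and TPM that the authors normalised by length and depth.

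Expected counts were rounded and tested with edgeR 4.0.16 in R 4.3.3 (filterByExpr with minimum count 10 and total 15, TMM, robust quasi-likelihood fit, Benjamini-Hochberg over 14067 genes, threshold 0.05). Alternatives used DESeq2 1.42.0, limma 3.58.1 and the changes given in the closing section. Log2 CPM used a prior count of 2. Intervals of ratio differences came from inverting the exact permutation test. No 2 libraries of an age agreed within counting noise (chi-square per degree of freedom at least 10.2). The scripts were tested on simulated data. Members and lists were chosen with earlier results of these data known. Unless said otherwise, genes named from lists are the 2 largest called changes in the main direction and the 1 largest in the other (where none was called, the gene of highest FPKM); likeness names 3 genes a member.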

Additional observations from a re-analysis of the deposited data

Results flagged for a closer look

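Values were checked for a library far from the rest of its age (the gap to its nearest neighbour against the whole range) in 50 groups of libraries, and 3 stood apart, where chance gives about 1 group in 20. All 3 lay in aged replicate 4 and concern Col11a1. Its level there was 1372 CPM and 211.8 FPKM, above the other 5 aged libraries at 82.42 to 126.09 FPKM and below all young ones. Its ratio to Col5a1 was 0.679, where the other aged libraries had 0.242 to 0.393. The 3 values share the same counts and are not independent. Without this library the log2 fold change of Col11a1 was −2.27 in place of −2.01.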

How the results depend on the processing

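The falls of Col2a1, Col11a1 and Col11a2 stayed called under all 27 alternatives. Among these, the fits with the 2 marker scores separate age from cell content weakly or not at all. The log2 fold change of Col27a1 was −0.32 with no filter, −0.31 with a stricter one, −0.088 with library sizes alone, −0.30 by limma-voom with library weights, −0.068 on both log2(FPKM + 1) and log2(FPKM + 0.1), −0.28 with the replicate block, −0.18 given the muscle score and −0.30 given that of erythroid cells and neutrophils, none of them called, and −0.39 to −0.25 with single libraries left out. That of Acan was 0.17 with library sizes alone, 0.16 on both FPKM scales, 0.013 with the replicate block, 0.015 and 0.069 given those 2 scores, and −0.17 to 0.034 with single libraries left out. Genes called higher and lower numbered 7034 and 1253 with library sizes alone, 6227 and 1369 on log2(FPKM + 1), 6230 and 1370 on log2(FPKM + 0.1), 1898 and 1668 given the muscle score, and 1626 and 1401 given the other, against 3471 and 3033. The causes were not tested.

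With same-numbered libraries paired (replicate block, sign flips of 6 pairs, smallest possible p = 0.03125), the log2 differences to Col27a1 were −1.68, −1.86 and −1.63 for Col2a1, Col11a1 and Col11a2, those to Acan −1.94, −2.12 and −1.89, Col27a1 to Col1a1 1.69, Col11a1 to Col5a1 −1.35 and to Col5a2 −1.10, and Col2a1 to Col9a1 3.20, each with an exact adjusted p of 0.0531. Before adjustment each of these p-values was the smallest that the sign flips can give. The shared numbers were not taken as pairs: no label ties them, deviations of same-numbered libraries from their age means correlated at −0.12 to 0.258, and 2 of 6 aged libraries correlated best with their own number. Col2a1 to Col1a1 was 0.0096 under the block. With single libraries left out, differences ranged from 0.072 to 0.20 for Col2a1 to Col11a1, −0.20 to 0.037 for Col2a1 to Col11a2, −0.32 to −0.14 for Col11a1 to Col11a2, −0.28 to −0.18 for Col27a1 to Acan, −0.20 to 0.074 for Col2a1 to Col1a1, −0.33 to −0.060 for Col11a1 to Col1a1 and −0.0088 to 0.12 for Col11a2 to Col1a1, and without both aged replicates 1 and 4, chosen after seeing the data, they were 0.040 for Col2a1 to Col11a1, −0.34 for Col2a1 to Col1a1 and −0.079 for Col11a2 to Col1a1. TPM, raw expected counts and FPKM + 1 changed no call among the ratios, and no correlation passed on another scale.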
